A study of Mus musculus with 11 samples.

Results

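The genes described here are 33 immunoglobulin cell adhesion molecules and close partners, chosen by symbol as members of known families, with earlier results of these data known: 6 contactins, 5 contactin-associated proteins (Cntnap), the 4 genes of the L1 family, Ncam1 and Ncam2 with the polysialyltransferases St8sia2 and St8sia4, 4 Cadm genes with Alcam, 4 IgLON genes, and the sidekicks Sdk1 and Sdk2 with Igsf3, Igsf8 and Thy1. All 33 were found by Ensembl identifier among the 39179 genes of the count table. The libraries came from CD1/Swiss mice at postnatal day 2. Cells of the V-SVZ, the ventricular and subventricular germinal zone beside the lateral ventricles, were dissociated and sorted for GFP. Both groups carried Gsh2-Cre, which is active in progenitors of the ventral forebrain, together with the RCE reporter, so GFP marked cells descended from Cre-expressing progenitors. The 6 control libraries came from Zeb2fl/wt animals, with 1 floxed allele of the zinc finger repressor gene Zeb2, and the 5 libraries labelled mutant from Zeb2fl/ko animals, with 1 floxed and 1 null allele. Cre deletes the floxed allele in both groups, which leaves control cells a wild-type allele, and the null allele of the mutants is present in cells of every kind. Separate animals are not stated for the libraries, and p-values here measure only the spread between libraries, which may be technical.

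Immunoglobulin cell adhesion molecules are surface proteins with extracellular immunoglobulin domains that bind the same molecule, or another adhesion molecule, on a neighbouring cell. Contactins and IgLON proteins are held in the membrane by a lipid anchor, and contactins act together with transmembrane Cntnap proteins, whereas L1 family proteins cross the membrane and bind the spectrin skeleton through ankyrins. In the postnatal V-SVZ the best known member is NCAM1, whose modification with polysialic acid by ST8SIA2 and ST8SIA4 lowers adhesion and marks migrating neuroblasts on their way to the olfactory bulb.

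Library totals lay between 6833981 and 13073505 counts. Zeb2 itself stood at 152 to 285 CPM (counts scaled to the library total) in controls and 202 to 373 CPM in mutants, but a gene-level count includes exons outside the deleted part and does not check the genotype. Sex was not balanced: 4 Y-linked genes had counts in control libraries 1, 2, 3 and 6 and 0 in control libraries 4 and 5 and in all 5 mutants. Several marker lists also held genes that differed between the groups (adjusted p under 0.05, edgeR test). Among all genes tested, 2.68% rose and 1.74% fell. Of 10 markers of interneurons of the medial ganglionic eminence (MGE) 6 rose and 1 fell, and their summed level was 545 to 924 CPM in controls and 2633 to 4055 CPM in mutants. Of 14 striatal projection neuron markers 7 fell and 1 rose (1259 to 2959.8 CPM and 761 to 984 CPM). Of 12 markers of olfactory bulb neuroblasts and interneurons 3 rose and none fell (3007 to 4749.7 CPM and 4357 to 6063 CPM). Of 8 markers of dividing cells 2 fell (282 to 606 CPM and 183 to 329 CPM), of 6 of oligodendrocyte precursors 1 fell (820.3 to 2369 CPM and 588 to 983 CPM), of 8 of excitatory neurons 1 rose (9.54 to 69.4 CPM and 29.2 to 125 CPM) and of 4 of oligodendrocytes 1 rose (162 to 275 CPM and 162 to 230.4 CPM). None of 9 markers of radial glia and astrocytes passed. Summed levels did not overlap between the groups for the MGE and striatal lists, and overlapped for every other list. Lists for microglia, endothelium and red blood cells stayed at or below 44.6 CPM in every library, with Tek and Hba-a2 at 0, and the choroid plexus and ependyma list at or below 19.4 CPM except for mutant 5 at 206 CPM. The part of these differences in the member results was not tested, and in sorted bulk cells fewer cells of a type and less RNA per cell cannot be told apart.

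Levels between genes were compared as CPM per kb of merged exon, a length that includes every annotated transcript and so can exceed that of the RNA in these cells. In the controls Ncam1 was the most abundant member at a mean of 76.1 CPM per kb (54.6 to 91.9 over the 6 libraries), followed by St8sia2 at 58.1 (41.9 to 68.5), L1cam at 29.2 (15.7 to 39.5), Igsf8 at 27.7 (24.1 to 32.3) and Cntn1 at 20.6 (15.4 to 28.6). The ranges of Ncam1 and St8sia2 overlapped each other, and so did those of L1cam, Igsf8 and Cntn1. St8sia2 was thus the polysialyltransferase with the higher level per length, and St8sia4 stood at 2.92 CPM per kb (1.82 to 4.92). At the other end Cntnap1, a protein of the myelinated axon's paranode, had a mean of 0.0608 CPM per kb and Cntnap5a one of 0.0782. Both were below the filter on low counts and were not tested.

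**Figure D1:**
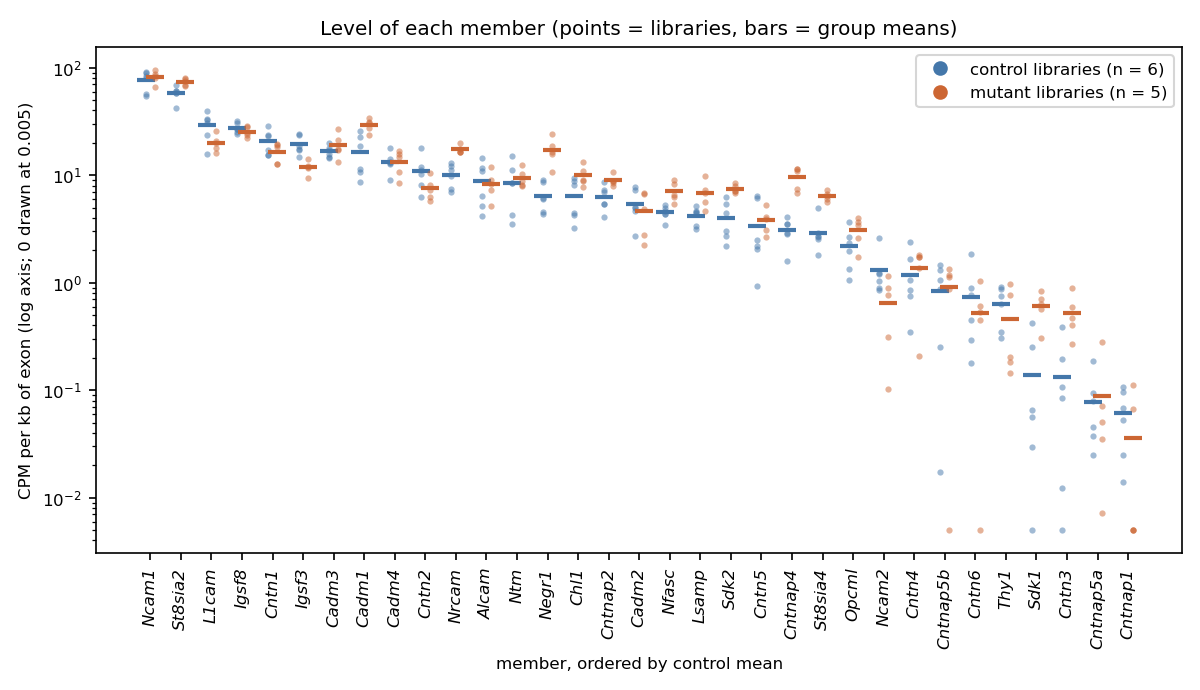
CPM per kb of exon (log axis) for all 33 members, ordered by the control mean, with 6 control and 5 mutant libraries as points and group means as bars; a value of 0 is drawn at 0.005. Ncam1 (76.1) and St8sia2 (58.1) stood above all other members in the controls, and Cntnap1 (0.0608) at the bottom.

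Of the 31 members tested, 8 rose and 1 fell in the mutants, and 22 did not pass. The genes that rose were Cntnap4, Negr1, St8sia4, Nrcam, Nfasc, Lsamp, Sdk2 and Cadm1, with log2 fold changes from 0.67 to 1.65, and the gene that fell was Igsf3. Every adjusted p-value here is from edgeR's quasi-likelihood test with Benjamini-Hochberg adjustment over the 14104 genes tested, at a threshold of 0.05. Among all genes tested 4.42% passed, 2.68% higher and 1.74% lower, whereas 29.0% of the tested members passed and 25.8% were higher. The median log2 fold change of the members was 0.22, with 21 above and 10 below 0, against a median of -0.02 over all genes. Of all genes tested 47.8% were above 0. The 21 members include Cntn3 and Sdk1, which the filter on low counts admitted through the mutants and which give no support for a direction. The median was not recomputed without them. In CPM all 5 mutants lay above all 6 controls for 6 members, where 2.67% of all genes did so, and below all controls for 1 member, where 2.32% did so. Leaving out 1 library at a time gave 4 to 9 members higher, with 4 without mutant 1 or mutant 3 and 5 without control 4 or mutant 4. DESeq2 called 11 members higher and 1 lower, adding Cntnap2, St8sia2 and the rarely counted Sdk1, where it called 7.86% of all genes, 4.35% higher and 3.51% lower. The call of Sdk1, admitted through the mutants, gives no support. None of the 9 members past the threshold shares exon bases with another gene at a mean of 1 CPM or more.

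**Figure D2:**
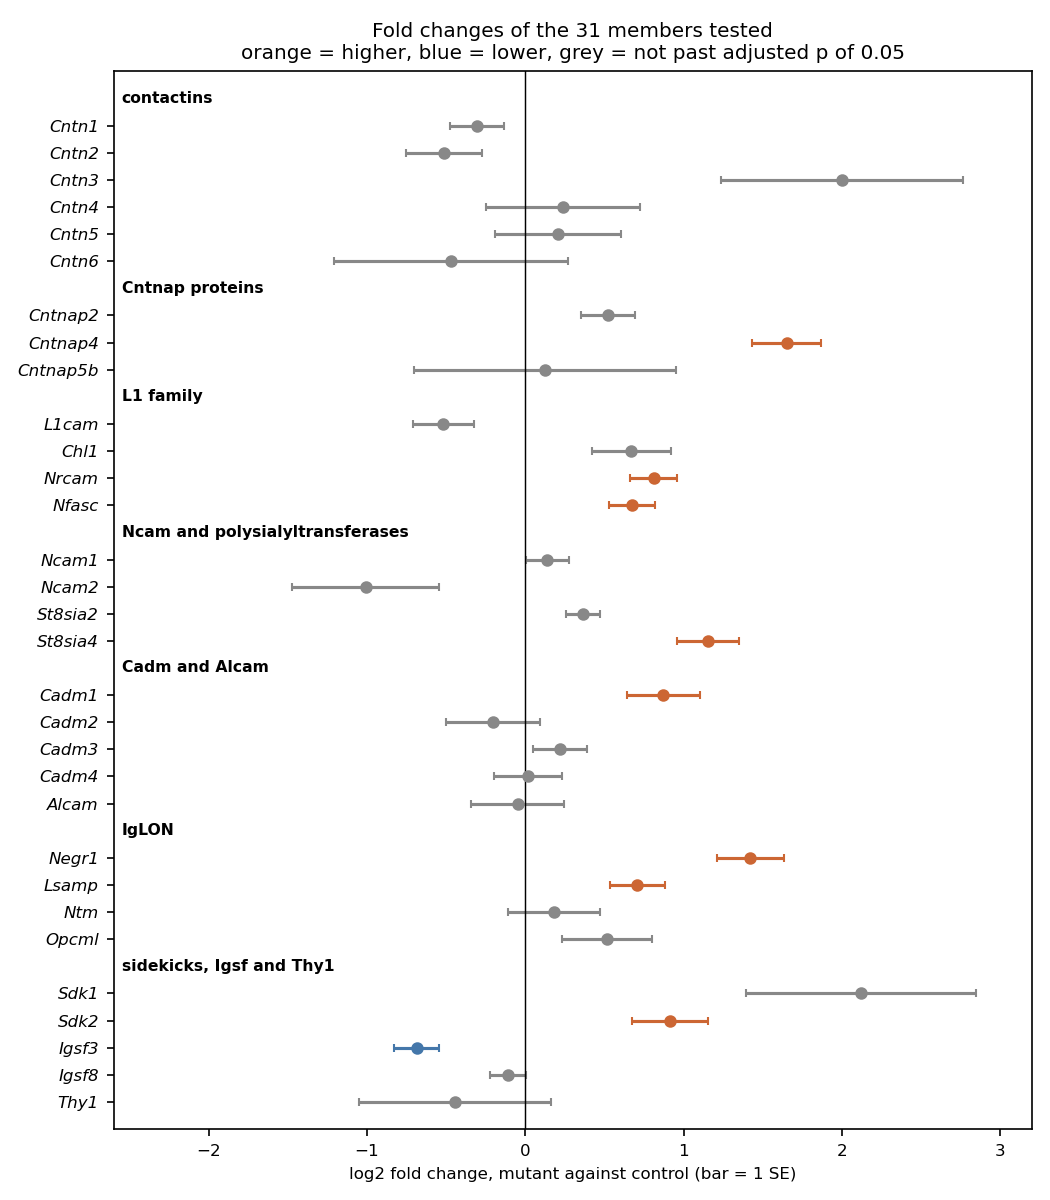
Log2 fold change of each of the 31 tested members, mutant against control, with bars of 1 standard error, grouped by family; orange is higher, blue lower and grey not past an adjusted p of 0.05. Each family except the contactins holds at least 1 member past the threshold, and the rarely counted Cntn3 and Sdk1 have the largest values and wide bars.

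ZEB2 is known to bind E-boxes with the core CACCT, often as CACCTG. Of the 33 members, 27 have promoter windows in the RefSeq table (GRCm38.p6, 250 bases before to 50 after the start; several windows for some genes). CACCTG, searched on both strands and thus also as CAGGTG, occurs in at least 1 window of 7 of these 27 genes, or 25.9%, against 22.6% of all 27025 genes with windows. The shorter CACCT, or AGGTG on the other strand, which also counts each CACCTG, occurs in 15 of the 27, or 55.6%, against 55.2% of all genes. Among the members past the threshold, Nrcam, which rose, and Igsf3, which fell, hold the longer motif. Their stretches are shown because the same letters lie at nearly the same distance from the RefSeq start of genes that moved in opposite directions. For Igsf3 the gene start given below, 101377083, lies closer to the motif, so this likeness depends on the start used. The capitals mark the motif. Its first base lies 205 bases before the RefSeq start of Nrcam (chr12:44328640-44328725, plus strand) and 204 bases before that of Igsf3 (chr3:101376881-101376966, plus strand).
Nrcam: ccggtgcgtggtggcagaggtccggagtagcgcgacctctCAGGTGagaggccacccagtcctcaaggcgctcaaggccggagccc
Igsf3: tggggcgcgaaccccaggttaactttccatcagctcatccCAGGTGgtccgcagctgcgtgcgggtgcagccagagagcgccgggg
A match is a description of letters and not a binding site. Of the 6 genes that rose and have windows, 3 hold the shorter motif: Nrcam, Lsamp and St8sia4. The windows of Negr1, Nfasc and Sdk2, which also rose, hold neither motif. Cntnap4 and Cadm1, which rose too, have no window and cannot be judged.

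Among the IgLON genes taken as members, which encode small anchored proteins that regulate neurite outgrowth and synapse number, 2 of 4 rose and 2 did not pass. Iglon5 was placed with the other immunoglobulin adhesion genes and did not pass (log2 fold change 0.05, adjusted p = 0.966). Negr1 (ENSMUSG00000040037, chromosome 3, 156561794 to 157316445, GRCm38) stood at 47.8, 64.8, 91.2, 63.6, 94.7 and 45.8 CPM in control libraries 1 to 6 and at 196, 165, 255, 173 and 112 CPM in mutant libraries 1 to 5. Every mutant lay above every control, with mutant 5 closest to them. The difference corresponded to 2.68-fold, a log2 fold change of 1.42 (SE 0.213, adjusted p = 0.00104). Lsamp (chromosome 16, 39984361 to 42181679), the limbic system-associated membrane protein gene, stood at 53.8, 78.6, 88.6, 58.1, 77.1 and 79.6 CPM in controls and 117, 97.1, 168, 125 and 80.6 CPM in mutants. The groups overlapped, since mutant 5 lay below control 3. Its log2 fold change was 0.71 (SE 0.174, adjusted p = 0.0322), and the call was lost without control 1, 2 or 4 or mutant 1, 3 or 4 (0.54 to 0.80 over all 11 fits without 1 library, adjusted p up to 0.092). Per kb of exon the ratio of Negr1 to Lsamp was 0.943 to 2.01 in controls and 2.26 to 2.78 in mutants, so the groups did not overlap in this ratio. The ratios given here and below were not tested, and how many other gene pairs separate in this way was not counted. Ntm, the neurotrimin gene, stood at 34.8, 89.95, 67.7, 68.99, 122 and 28.3 CPM in controls and 99.5, 71.5, 83.2, 63.7 and 65.4 CPM in mutants, all of which lay within the range of the controls (log2 fold change 0.18, SE 0.293, adjusted p = 0.815). Opcml, the gene of the opioid-binding cell adhesion molecule, stood at 28.7, 33.7, 38.8, 19.6, 53.9 and 15.4 CPM in controls and 53.2, 24.97, 57.6, 49.6 and 38.2 CPM in mutants (log2 fold change 0.52, SE 0.285, adjusted p = 0.378). Here only mutant 3 exceeded the highest control.

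Cntnap4 had the smallest adjusted p and the largest fold change among the members past the threshold. It encodes a neurexin-like protein of interneurons that acts at their output synapses. Cntnap4 (ENSMUSG00000031772, chromosome 8, 112570043 to 112882717) stood at 22.2, 25.7, 22.1, 9.96, 17.8 and 18.3 CPM in controls and 71.8, 42.98, 68.1, 72.1 and 46.4 CPM in mutants. The mutants formed a higher group of 3 libraries and a lower one of 2, both above the controls. Its level was 3.14-fold higher (log2 fold change 1.65, SE 0.219, adjusted p = 0.000387). Cntnap2, which encodes the protein that clusters potassium channels beside the paranode, stood at 42.1, 55.1, 74.8, 55.8, 89.5 and 71.3 CPM in controls and 80.6, 89.98, 110.3, 87.7 and 91.1 CPM in mutants. Only control 5 reached into the range of the mutants. It did not pass (log2 fold change 0.52, SE 0.172, adjusted p = 0.109), but did without control 5 (0.63, adjusted p = 0.0417). The ratio of Cntnap4 to Cntnap2 per kb of exon overlapped between the groups, at 0.291 to 0.861 in controls and 0.779 to 1.45 in mutants. Cntnap5b, another neurexin-like gene, stood at 1.32, 6.89, 4.51, 5.498, 7.68 and 0.0908 CPM in controls and 5.89, 4.504, 6.100, 7.04 and 0 CPM in mutants, with control 6 and mutant 5 lowest (log2 fold change 0.12, SE 0.825, adjusted p = 0.959). The untested Cntnap1 and Cntnap5a stayed at or below 0.654 and 3.05 CPM in every library.

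None of the 6 contactins passed. Contactins share a layout of immunoglobulin and fibronectin repeats, and Cntn1 and Cntn2 are the main partners of Cntnap proteins on axons. Cntn1 stood at 145, 220.4, 221, 146, 269.9 and 163 CPM in controls and 181, 121, 173, 186 and 119 CPM in mutants, 2 of which lay below all controls (log2 fold change -0.30, SE 0.171, adjusted p = 0.393). Cntn2, known as TAG-1, stood at 111, 76.01, 58.1, 103, 94.6 and 168 CPM in controls and 58.6, 53.5, 97.4, 68.2 and 75.8 CPM in mutants (log2 fold change -0.51, SE 0.241, adjusted p = 0.289). Control 6 was the highest library for this gene. The other 4 were sparse, with group means of at most 17.3 CPM. Cntn3 passed the filter on low counts through the mutants, with 2 of 6 controls above the filter of 0.979 CPM. It stood at 1.32, 0.08298, 0, 0.726, 0.565 and 2.63 CPM in controls and 1.81, 2.74, 4.03, 3.14 and 5.98 CPM in mutants, and is given in full after its values were seen. Its log2 fold change of 2.00 had an SE of 0.765 (adjusted p = 0.181), and it was called without control 6, its highest control (2.79, adjusted p = 0.0489), which gives no support in a gene admitted through the mutants. Cntn4, Cntn5 and Cntn6 had log2 fold changes of 0.24, 0.21 and -0.47 with adjusted p of at least 0.809.

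In the L1 family, whose members guide and bundle axons, Nrcam and Nfasc rose while L1cam and Chl1 did not pass. Nrcam (ENSMUSG00000020598, chromosome 12, 44328885 to 44601964), which holds the promoter motif shown above, stood at 99.1, 150.2, 172, 132, 162 and 92.3 CPM in controls and 222, 218, 266, 237 and 221 CPM in mutants. The mutants lay close together and all above the controls (log2 fold change 0.81, SE 0.148, adjusted p = 0.00452). Nfasc (chromosome 1, 132564690 to 132741797) encodes neurofascin, a protein of the axon initial segment and node. It stood at 62.2, 70.3, 74.1, 48.3, 65.8 and 61.3 CPM in controls and 117, 75.8, 128, 93.3 and 88.6 CPM in mutants. Mutant 2 lay just above the highest control, and the groups did not overlap (log2 fold change 0.67, SE 0.147, adjusted p = 0.0148). The call was lost without mutant 1 or mutant 3 (0.57 to 0.76 over the 11 fits, adjusted p up to 0.0515). L1cam, on the X chromosome and overlapping Arhgap4 by 100 bases, stood at 116, 243, 239, 176, 289.9 and 226 CPM in controls and 147, 189.9, 154, 117 and 131 CPM in mutants. All 5 mutants lay below 4 of the 6 controls, and control 1 was the lowest of the 11 libraries. Its log2 fold change of -0.52 did not pass (SE 0.193, adjusted p = 0.169), but did without control 1 (-0.64, adjusted p = 0.0293). Chl1, the close homologue of L1, stood at 39.7, 99.6, 108, 52.3, 115 and 54.9 CPM in controls and 134, 111, 162, 96.2 and 109 CPM in mutants (log2 fold change 0.67, SE 0.249, adjusted p = 0.166). For Chl1 the controls fell apart into 3 libraries of at most 54.9 CPM and 3 of at least 99.6 CPM.

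The gene of the adhesion molecule that carries polysialic acid did not pass, whereas 1 of the 2 enzymes that build the chain rose. Ncam1 stood at 497, 796, 777, 689, 723 and 473 CPM in controls and 723, 758, 825, 699.9 and 573 CPM in mutants, with control 1 and control 6 lowest and the groups overlapping (log2 fold change 0.14, SE 0.136, adjusted p = 0.672). St8sia4 (ENSMUSG00000040710, chromosome 1, 95587682 to 95667571) stood at 36.6, 53.1, 54.1, 51.2, 98.8 and 58.6 CPM in controls and 135, 147, 122, 113 and 127 CPM in mutants. Control 5 stood apart from the other controls but below every mutant. The log2 fold change was 1.16 (2.23-fold, SE 0.194, adjusted p = 0.00242), and it did not pass among female libraries (adjusted p = 0.152) or with the Y-linked covariate (adjusted p = 0.163). St8sia2 stood at 226, 324, 328, 316, 369 and 316 CPM in controls and 421, 373, 429, 401 and 367 CPM in mutants. Mutant 5 lay just below control 5, and the other mutants lay above all controls. St8sia2 did not pass (log2 fold change 0.36, SE 0.106, adjusted p = 0.0703), though it did without control 5 (0.41, adjusted p = 0.044) and with DESeq2 (0.37, adjusted p = 0.0236). A difference between the responses of the 2 enzymes was not tested. Per kb of exon the ratio of St8sia4 to St8sia2 was 0.0434 to 0.0718 in controls and 0.0755 to 0.106 in mutants, without overlap. In CPM the control mean of St8sia4 was already below that of St8sia2 (58.7 against 313). The long merged exon length of St8sia4 (20091 bases against 5384) lowers the ratio further. Ncam2, the related molecule of olfactory axons, had a mean of 14.7 ± 7.38 CPM (SD, n = 6) in controls and 7.297 ± 4.84 CPM (SD, n = 5) in mutants and did not pass (log2 fold change -1.01, SE 0.466, adjusted p = 0.279).

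**Figure D3:**
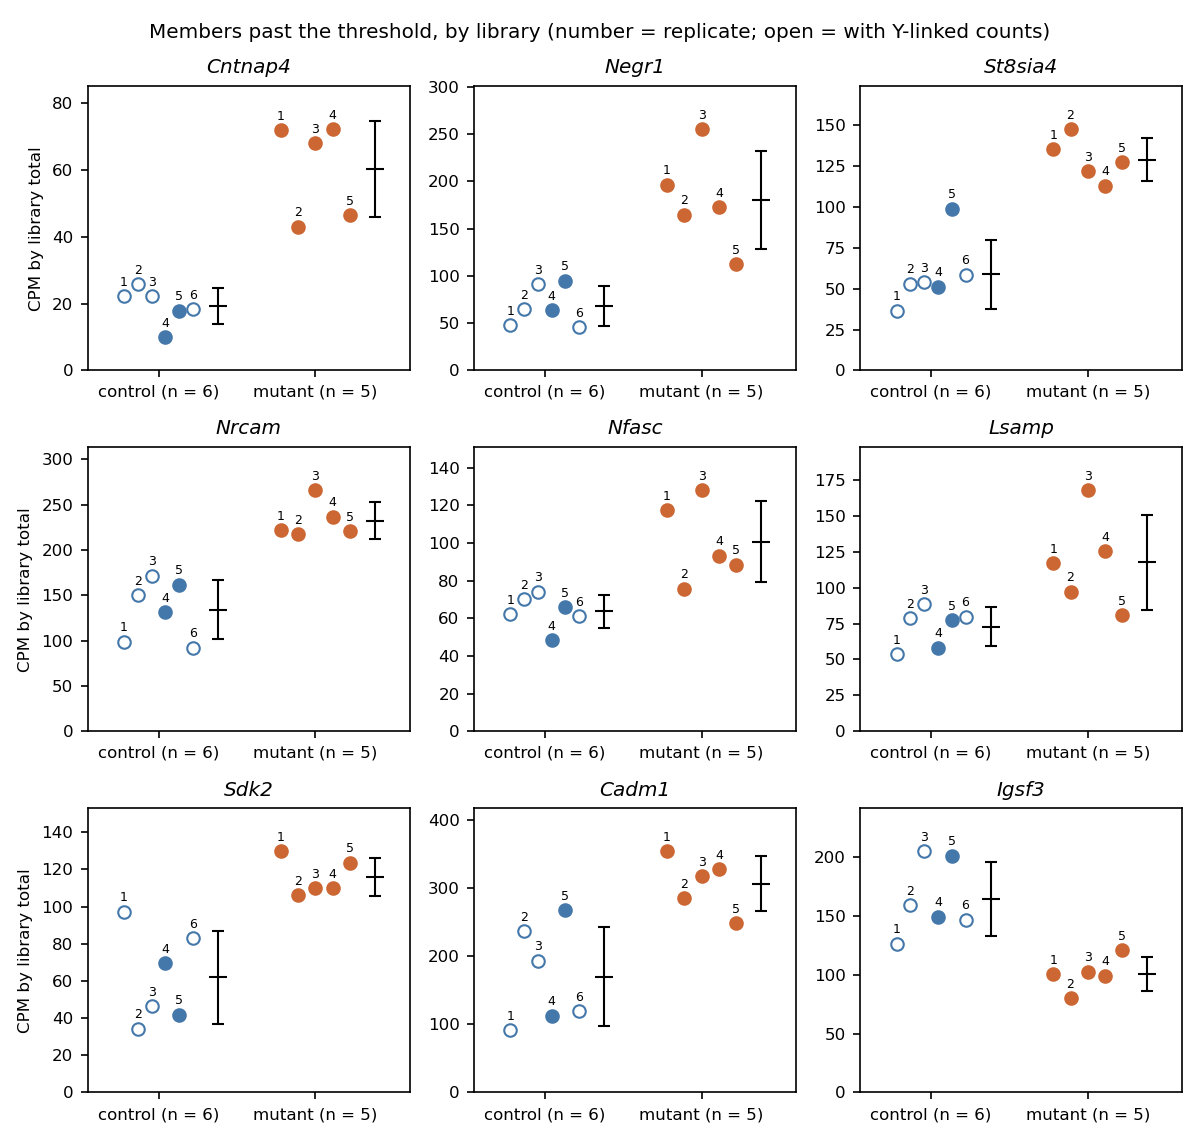
CPM by library total for the 9 members past the threshold in 6 control (blue) and 5 mutant (orange) libraries, numbered by replicate, with mean and SD beside each group; open points are the 4 controls with Y-linked counts. The groups overlap for Lsamp and Cadm1 and do not for the other 7, and Igsf3 is lower in the mutants.

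Of the 4 Cadm genes and Alcam, which encode adhesion molecules of synapses, axons and glia, Cadm1 alone passed. Cadm1 (chromosome 9, 47530173 to 47857637), also called SynCAM 1, stood at 91.02, 237, 193, 112, 268 and 119 CPM in controls and 354, 285, 318, 328 and 249 CPM in mutants. Mutant 5 lay below control 5, and the controls spanned the widest range among the members that rose in absolute terms. Its log2 fold change was 0.87 (SE 0.231, adjusted p = 0.0446). The call was lost in 9 of 11 fits without 1 library, all but those without control 2 or control 5 (0.75 to 1.04, adjusted p up to 0.111). Cadm3, whose exons overlap Ackr1 by 361 bases, stood at 105, 107, 124, 115, 131 and 146 CPM in controls and 123, 154, 126, 95.4 and 193 CPM in mutants, where mutant 4 was the lowest and mutant 5 the highest of all 11 libraries (log2 fold change 0.22, SE 0.172, adjusted p = 0.569). Cadm4, a member found on myelinating glia, stood at 38.6, 30.3, 28.8, 27.8, 19.5 and 27.7 CPM in controls and 36.1, 23.2, 31.8, 18.4 and 34.2 CPM in mutants. The group means were the same to 3 digits, 28.8 ± 6.11 CPM (SD, n = 6) and 28.8 ± 7.59 CPM (SD, n = 5). Cadm2 had a log2 fold change of -0.20 (SE 0.297, adjusted p = 0.791) and Alcam, an adhesion molecule of growing axons, one of -0.05 (SE 0.293, adjusted p = 0.956).

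Igsf3 was the member that fell. It encodes a tetraspanin-associated protein of the same subfamily as Igsf8. Igsf3 (ENSMUSG00000042035, chromosome 3, 101377083 to 101463059) stood at 126, 159, 205, 149, 201 and 147 CPM in controls and 101, 79.9, 102, 99.1 and 121 CPM in mutants. Mutant 5 was nearest to the controls and the groups did not overlap (log2 fold change -0.69, SE 0.144, adjusted p = 0.012). Igsf8, which also binds tetraspanins, stood at 133, 159, 126, 139, 142 and 168 CPM in controls and 123, 149, 116, 147 and 128 CPM in mutants (log2 fold change -0.11, SE 0.114, adjusted p = 0.694). Sdk2 (chromosome 11, 113776374 to 114067046), a sidekick gene that directs synaptic layering in the retina, stood at 97.2, 34.2, 46.5, 69.4, 41.9 and 82.9 CPM in controls and 129.7, 106, 109.8, 110.0 and 124 CPM in mutants. The mutants lay close together, above controls that ranged widely, with control 2 lowest and control 1 highest (log2 fold change 0.91, SE 0.239, adjusted p = 0.0422). The call was lost in 9 of 11 fits without 1 library, all but those without control 1 or control 6 (0.78 to 1.09, adjusted p up to 0.101). Sdk1, given here after its values were seen, also passed the filter on low counts through the mutants. It stood at 0.732, 0.332, 2.81, 0.622, 0 and 4.72 CPM in controls and 6.36, 3.43, 9.26, 6.96 and 7.87 CPM in mutants, and mutant 2 lay below control 6. Its log2 fold change of 2.12 did not pass (SE 0.728, adjusted p = 0.128), and was called without control 6, its highest control (2.91, adjusted p = 0.0263). A gene that the filter admits through the group where it is high had to differ, so such a call gives no support. Thy1, a small anchored protein of mature neurons, stood at 1.902, 0.913, 2.605, 1.04, 2.26 and 2.73 CPM in controls and 0.549, 2.94, 0.436, 0.612 and 2.28 CPM in mutants, where 3 libraries lay below all controls and mutant 2 above them (log2 fold change -0.44, SE 0.605, adjusted p = 0.775).

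**Figure D4:**
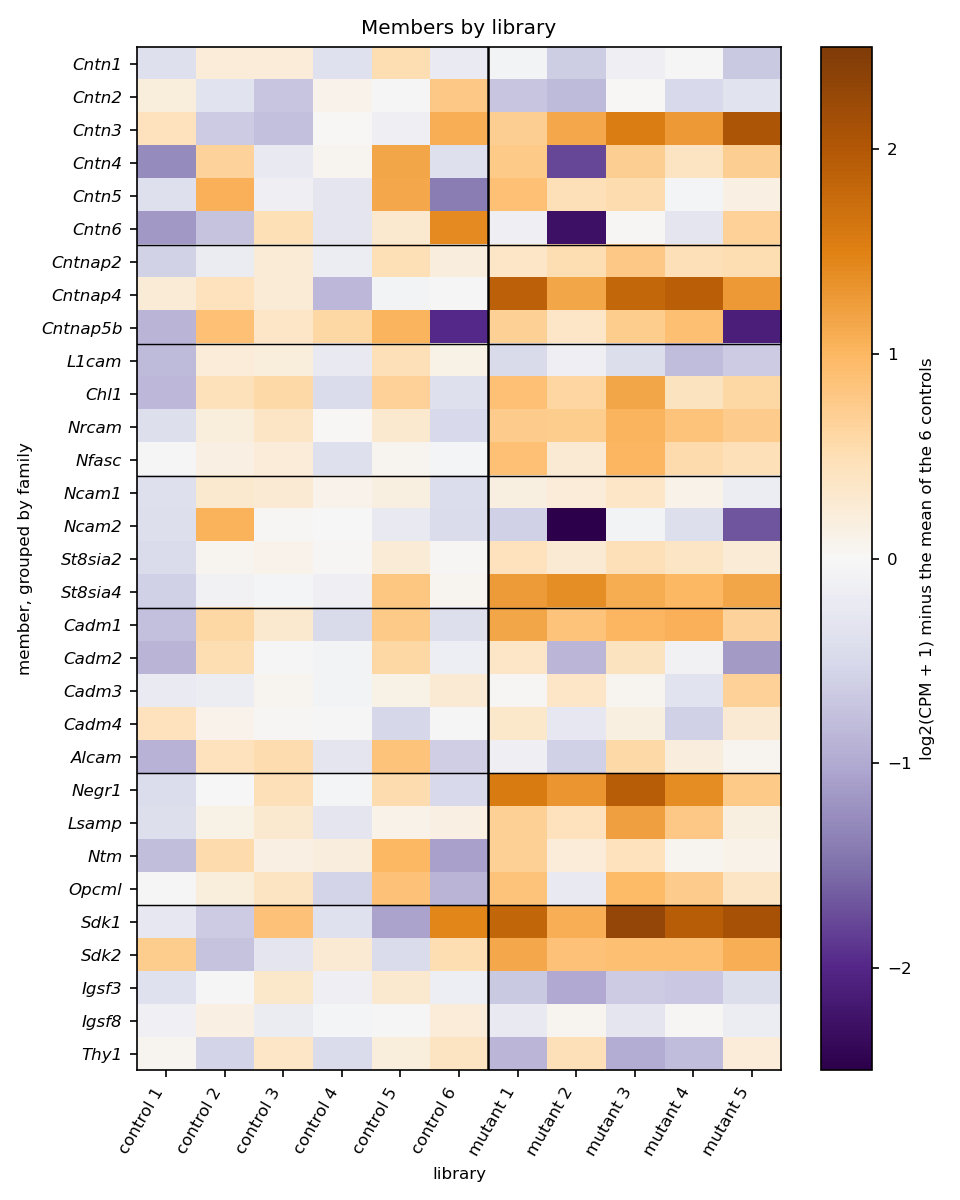
Difference of log2(CPM + 1) from the mean of the 6 controls for the 31 tested members (rows, by family) in each library (columns), with orange above and purple below. Negr1, Cntnap4 and St8sia4 are above the control mean in all 5 mutants, as are several other members, among them Ntm, which did not pass. Control 1 holds the lowest control value for 14 of the 31 members and control 5 the highest for 15.

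Summed over the members of each family, the ratio of mutant to control means was 1.76 for the Cntnap proteins, 1.74 for the IgLON genes and between 0.803 and 1.33 for the other families. These sums leave out Iglon5 and Cntnap3, which were placed with the other immunoglobulin adhesion genes. Cntnap3 had means of 9.05 CPM in controls and 22.6 CPM in mutants and did not pass (log2 fold change 1.33, adjusted p = 0.278). The Cntnap genes summed to 89.7 ± 18.8 CPM (SD, n = 6) in controls and 158 ± 21.2 CPM (SD, n = 5) in mutants, with ranges of 66.7 to 118 and 138 to 188 CPM that did not overlap. The IgLON genes summed to 241 ± 72.2 and 419 ± 102 CPM, where mutant 5, at 297 CPM, lay within the controls' range of 165 to 348 CPM. The sum of the Cadm genes and Alcam was 436 ± 117 and 579 ± 47.2 CPM, that of the L1 family 491 ± 123 and 603 ± 67.6 CPM, and that of the Ncam genes with the polysialyltransferases 1046 ± 189 and 1250.2 ± 117 CPM. In these 3 sums the groups overlapped. The contactins summed to 327 ± 57.04 CPM in controls and 262 ± 45.6 CPM in mutants, and the sidekicks with Igsf3, Igsf8 and Thy1 to 374 ± 20.3 and 357 ± 18.3 CPM. A sum follows its most abundant genes, and no test was made on these sums. The controls differed among themselves across families. Control 1 held the lowest control value for 14 of the 31 tested members and control 6 for 8, and control 5 held the highest for 15. Among the mutants, mutant 3 was highest for 14 members and mutant 2 lowest for 12.

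The difference in sex between the groups touches every call above. With the 2 female controls against the 5 mutants, all female, 4 members were called higher and none lower, where 1.46% of the 14897 genes tested passed, 1.01% higher and 0.456% lower. The 4 were Cntnap4 (log2 fold change 2.14, SE 0.307, adjusted p = 0.00603), Nrcam (0.69, SE 0.146, adjusted p = 0.0467), Sdk2 (1.08, SE 0.22, adjusted p = 0.0398) and Sdk1 (4.37, SE 0.883, adjusted p = 0.0379), the last with no count in control 5. Sdk1 passed the filter on low counts through the mutants, so its call is given for completeness and supports nothing. Negr1 (1.21, adjusted p = 0.0589), Nfasc (0.84, adjusted p = 0.12), Lsamp (0.82, adjusted p = 0.191), St8sia4 (0.82, adjusted p = 0.152), Cadm1 (0.72, adjusted p = 0.284) and Igsf3 (-0.77, adjusted p = 0.0832) did not pass there. When the Y-linked level entered the fit of all 11 libraries as a covariate, Cntnap4 alone passed (2.15, SE 0.291, adjusted p = 0.00192), where 1.32% of all genes did so, 0.851% higher and 0.468% lower. The other 8 members kept their direction, at 0.74 to 1.25 for those that rose and -0.76 for Igsf3. The Y-linked level was 0 in all 5 mutants and in the 2 female controls. The covariate fit therefore rests largely on the same 2 controls as the female fit, and the 2 fits are not separate checks.

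**Figure D5:**
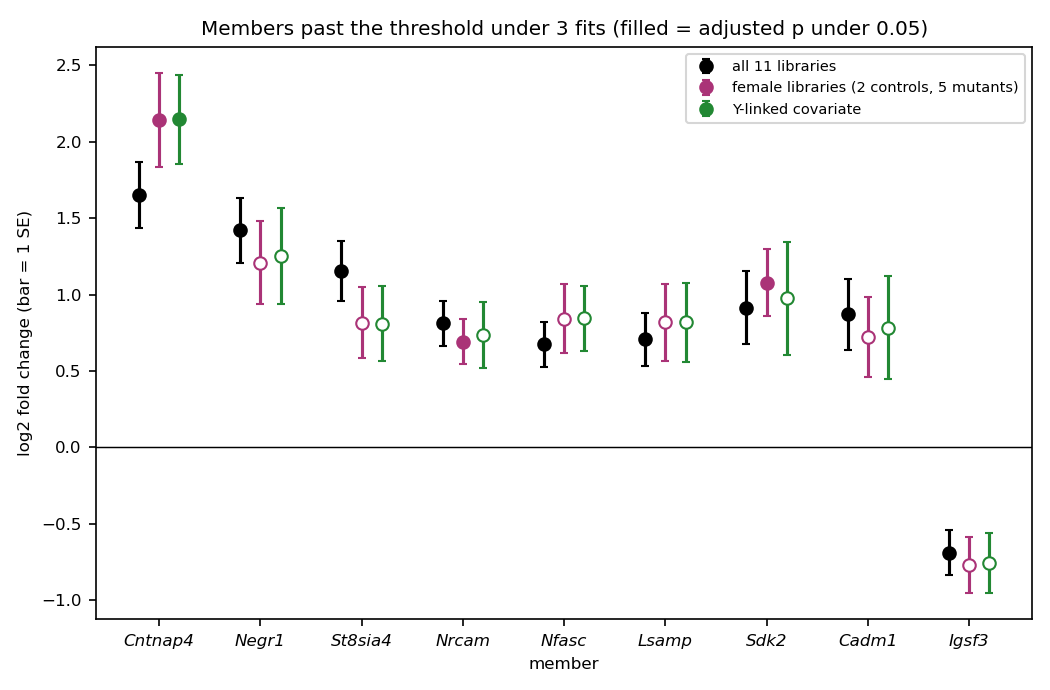
Log2 fold change with 1 standard error for the 9 members past the threshold in all 11 libraries (black), among female libraries (purple, 2 controls and 5 mutants) and with a Y-linked covariate (green); filled points have an adjusted p under 0.05. All 27 points keep the direction of the black ones, and Cntnap4 is filled in all 3 fits.

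The wider network of these molecules was described with 4 further lists, to be read against the 2.68% of all genes tested that rose and the 1.74% that fell. Of 41 tested other immunoglobulin adhesion genes, Igsf21 rose, Jam2, Nectin3 and Kirrel3 fell and 37 did not pass (median log2 fold change 0.00). Igsf21, which encodes a synaptic adhesion molecule that promotes inhibitory synapses, stood at 83.3 ± 16.6 CPM (SD, n = 6) in controls and 168 ± 21.6 CPM (SD, n = 5) in mutants (log2 fold change 1.03, adjusted p = 0.00104; 1.16 among female libraries, adjusted p = 0.0273). Jam2, a junctional adhesion molecule gene, Nectin3 and Kirrel3 had log2 fold changes of -0.83, -1.47 and -0.66 (adjusted p = 0.0385, 0.0485 and 0.0494), and leaving out 1 library ended these calls in 8, 9 and 9 of the 11 cases. Igsf21 passed with the Y-linked covariate (adjusted p = 0.0328), and Jam2, Nectin3 and Kirrel3 passed neither there nor among female libraries (adjusted p from 0.19 to 0.366).

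Of 34 extracellular partners and shedding proteases, 4 rose, 1 fell and 29 did not pass (median log2 fold change 0.05), where 4.42% of all genes passed. Nrp1, a semaphorin receptor that acts with L1, rose by 2.32 on the log2 scale (adjusted p = 7.82e-05), and Epha3, a receptor tyrosine kinase gene, by 1.55 (adjusted p = 0.00175). Prnp, the prion protein gene and a binding partner of NCAM, stood at 282 ± 45.4 and 432 ± 49.2 CPM (log2 fold change 0.63, adjusted p = 0.00568). Tnr, which encodes tenascin-R, a matrix ligand of contactins, went from 13.5 ± 4.28 to 4.25 ± 1.51 CPM (log2 fold change -1.65, adjusted p = 0.00698). Aplp2, named after its values were seen and a relative of the amyloid precursor, rose by 0.54 on the log2 scale (adjusted p = 0.0295), a call that 6 of the 11 leave-one-out fits did not give. Nrp1 and Prnp passed among female libraries (adjusted p = 0.00603 and 0.0134) and with the Y-linked covariate (0.00747 and 0.0244), whereas Epha3 (0.0697 and 0.0708), Tnr (0.137 and 0.12) and Aplp2 (0.272 and 0.36) passed in neither.

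Of 34 intracellular partners, Ank3 and Epb41l5 rose, Ezr and Msn fell and 30 did not pass (median log2 fold change 0.00). Ank3 encodes ankyrin-G, the anchor of Nfasc and Nrcam at the axon initial segment, and stood at 94.5 ± 30.5 CPM (SD, n = 6) in controls and 154 ± 23.7 CPM (SD, n = 5) in mutants (log2 fold change 0.72, adjusted p = 0.042). Its call and that of Epb41l5 (0.51), a band 4.1 family gene, were each lost in 9 of the 11 fits without 1 library. Ezr and Msn encode ezrin and moesin, which link L1 to actin. Ezr went from 349.7 ± 59.2 to 199.9 ± 36.3 CPM (log2 fold change -0.79, adjusted p = 0.00323) and Msn from 88.7 ± 17.2 to 42.3 ± 6.85 CPM (log2 fold change -1.06, adjusted p = 0.000969). Ezr and Msn also passed among female libraries (adjusted p = 0.0436 and 0.0498) and with the Y-linked covariate (adjusted p = 0.0403 and 0.0337). Ank3 (adjusted p = 0.251 and 0.314) and Epb41l5 (0.145 and 0.166) passed in neither.

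Among 22 tested genes of the sialic acid pathway, which supplies and transfers the sugar that polysialyltransferases polymerise, none rose, St3gal4 fell and 21 did not pass (median log2 fold change -0.10), a share near the 4.42% of all genes. St3gal4, a sialyltransferase gene whose exons overlap 4930581F22Rik, fell by 0.65 on the log2 scale (adjusted p = 0.0496), a call that 10 of the 11 leave-one-out fits did not give. It did not pass among female libraries or with the Y-linked covariate (adjusted p = 0.23 and 0.231).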

How the data were processed

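The authors deposited 1 table of unnormalised counts, with an Ensembl gene in each line and a column for each of 11 libraries. RNA of sorted cells was sequenced from TruSeq libraries, per the labels' protocols. Per the submitters' processing notes, the tools were TopHat2 2.0.13 and featureCounts 1.4.6 and the build mm10 (GRCm38). Not given in the sources used here are the annotation release, the strand setting and how multiply aligned reads were counted. Libraries of a group differed beyond counting noise (smallest chi-square divided by its degrees of freedom 13.7), which separate preparations of 1 sample would do too.

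Symbols, coordinates and exon lengths came from GENCODE M21 (GRCm38), promoters from RefSeq (GRCm38.p6). The test was edgeR 4.0.16 under R 4.3.3 (filterByExpr, TMM factors, robust quasi-likelihood fit); the SE was derived from the fold change and the F statistic. CPM in the text are by library total. Groups came from the titles. Alternatives were upper quartile, RLE or no composition scaling, 2 other filters, DESeq2 1.42.0, limma-voom (limma 3.58.1), thresholds of 0.01 and 0.1, non-robust estimation, leaving out libraries, a replicate block, a Y-linked covariate, female libraries only, and leaving out Gm42418. Summaries used Python 3.11.15.

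The members and lists were chosen with earlier results of these data known. Members past the threshold are given by library, as are the 2 per family with the highest level per kb among the others; from each partner list up to 4 genes past the threshold with the smallest adjusted p are named. Without a stated strand setting, counts of members with overlapping exons are uncertain; 1 such overlap, of a member not past the threshold, is not reported here.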

Additional observations from a re-analysis of the deposited data

Results flagged for a closer look

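In 5 of 66 groups of libraries examined (33 members, 2 groups each) 1 library stood apart from the others of its group by more than the 95% limit of Dixon's test; chance flags about 1 in 20 groups. St8sia4 stood at 98.8 CPM in control 5, against 36.6 to 58.6 CPM in the other 5 controls. For St8sia2 control 1 held 226 CPM, with the other controls at 316 to 369 CPM. Ncam2 was at 29.4 CPM in control 2 and at 9.72 to 14.03 CPM in the other controls. Among the mutants, Cntn4 was at 1.76 CPM in mutant 2 and 11.7 to 15.4 CPM elsewhere, and Cntnap5a, which was too low to be tested, at 3.05 CPM in mutant 3 and at most 0.783 CPM elsewhere. The 5 flags fell in 5 different libraries.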

How the results depend on the processing

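All 9 members past the threshold kept their direction in all 24 other fits. The count of 8 members higher and 1 lower was 1 and 0 with the Y-linked covariate, 4 and 0 among female libraries, and 4 and 0 at a threshold of 0.01. Without 1 library at a time it ranged from 4 to 9 higher and from 1 to 2 lower. The other settings gave 7 to 11 higher, the most with DESeq2, which added Cntnap2, St8sia2 and Sdk1 (12 members called in all, and 1108 genes against 623). Sdk1, which the filter admitted through the mutants, is among the members called with DESeq2, limma-voom and the replicate block. It is also among those called in female libraries and without control 6, the last with Cntn3, admitted likewise. Neither gene gives support. Over all genes 186 passed with the covariate and 218 among female libraries, and 412 with the replicate block. The replicate numbers did not pair the libraries (correlations of deviations from -0.137 to 0.0207 over 5 pairs); with the replicate block 7 members were higher and 1 lower, with Cadm1 and Lsamp lost (adjusted p = 0.101 and 0.0524) and Sdk1 gained. In the 4 partner lists 14 genes passed, against 5 to 23 over the alternatives. Of 744 fold changes of members under an alternative, 687 kept their side of the threshold, 45 lost it and 12 gained it, and the cause was not tested. The 10 members with a mean below 20 CPM in both groups rest on few counts and vary between libraries, with an SE of up to 0.825 among those tested; depth and spread were not separated.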
